A study of Mus musculus with 45 samples.

Results

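Microglia, the macrophages of the brain parenchyma, were compared between postnatal day 10 (P10) and postnatal day 21 (P21) by bulk RNA sequencing of sorted cells. The 8 libraries, 3 of P10 and 5 of P21, were chosen by their labelled population and age from the 45 libraries of the series, and every gene of the deposited table was considered. The series also holds microglia of 3 other ages and macrophages of the meninges (mMΦ) and of the perivascular space (pvMΦ). All mice were C57BL/6J with the genotype Cx3cr1GFP/wt, so that the P10 controls and the P21 mice alike carried GFP in 1 allele of the fractalkine receptor gene, and none received a treatment. Per the series' design each age was represented by individual mice, while the sex of the mice and the sorting gate were not given in the sources used here. All 3 P10 libraries and P21 replicates 1, 2 and 3 were of sequencing project S232, and P21 replicates 4 and 5 were of project S276.

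Microglia enter the brain in the embryo and divide in it well after birth. In the mouse the cells of the first postnatal weeks are often amoeboid, take up dying cells, synapses and myelin debris, and express genes of lipid handling and lysosomes, and by weaning they become ramified and largely quiescent. Adult microglia are then kept by slow self-renewal and are recognised by surface proteins such as P2ry12 and Tmem119.

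Sequencing depth was similar at both ages, with 20751253 to 24270739 counts per library at P10 and 15967501 to 21275532 at P21. Scaled to an equal total of 9000000 counts, the P10 libraries were expected to show 14205 to 14910 genes and the P21 libraries 13395 to 15279, which overlap (two-sided exact permutation p = 0.589, 56 splits, smallest possible p 0.0179). Pairs of libraries of an age had a variance of 44.7 to 230.4 times that of counting error (chi-square per degree of freedom). The edgeR common dispersion was 0.674 at P10 and 0.998 at P21. The P21 dispersion was estimated without a project term, so that it includes the difference between S232 and S276. The P21 pairs were at 178.6 to 230.4 across projects, 89.6 to 109.2 within S232 and 44.7 within S276. Mitochondrial transcripts took 0.757 to 0.956% of counts at P10 and 0.415 to 0.649% at P21, and their part in the results was not tested. P21 replicate 1 held both Xist (121 CPM) and Y-linked transcripts (summed 74.4 CPM), whereas Xist was at 5.96 and 5.86 CPM in P21 replicates 2 and 5 and at 0.125 CPM or less in the other libraries. Y-linked transcripts were at 107 to 164 CPM in the P10 libraries and at 74.4 to 217 CPM in the P21 libraries. Why P21 replicate 1 held both, although the design gives individual mice, was not tested. P21 replicate 5 stood apart in markers of other cells, with a summed level of 144 CPM for 20 genes of fibroblasts and leptomeningeal cells against 4.52 to 16.1 CPM in the other libraries.

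Of 17064 genes tested, 191 (1.12%) were lower at P21 than at P10 and 40 (0.234%) were higher, at an adjusted p under 0.05 from the quasi-likelihood test of edgeR. Levels are given as CPM, read counts scaled to a common library size with TMM factors, and differences as log2 fold changes ± SE, P21 minus P10, from a model with a term for project S276, so that they can differ from the ratio of the mean levels. The genes that fell changed by more than those that rose. The median absolute log2 fold change was 6.93 among the 191 and 1.17 among the 40, while over all tested genes the median log2 fold change was 0.04 and 48.0% were negative. The median level of the genes that fell was 29.0 CPM at P10 and 0.352 CPM at P21, and 21 of them had no count in any P21 library. The genes that rose had medians of 174 CPM at P10 and 379 CPM at P21. The libraries of both ages did not overlap for 174 of the 191 and 39 of the 40, which describes the calls and adds no support to them, and over all tested genes the share without overlap was 5.93% (lower) and 5.13% (higher). The shares of all tested genes given in this paragraph are the background of each list count below.

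**Figure D1:**
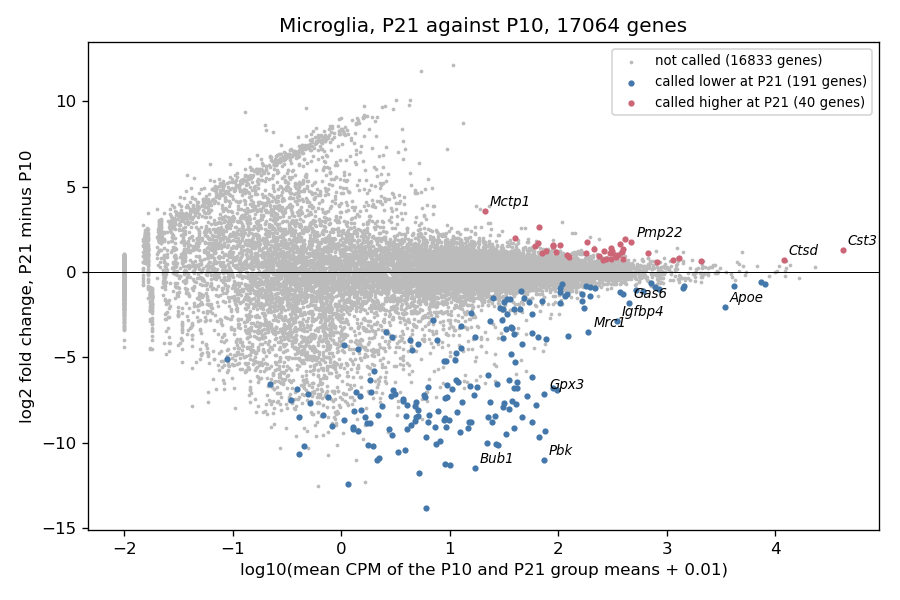
Log2 fold change from P10 to P21 of the 17064 tested genes (vertical axis) against log10 of the mean of both group means in CPM plus 0.01 (horizontal axis). Blue points are the 191 genes lower at P21, red points the 40 genes higher and grey points the rest; the falls reach far below -5 while most rises lie between 0 and 2.

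These counts moved with the libraries and the model. Without P10 replicate 1, 2 or 3 the number of higher genes was 22, 18 and 20, whereas leaving out a P21 library left 29 to 39, and the number of lower genes ran from 140 to 177 over all 8 omissions. Within project S232, which compares 3 libraries with 3, 45 genes were higher and 157 lower, and project S276 holds no P10 library, so that it gives no comparison of its own. The 8 libraries fitted alone gave 178 higher and 262 lower genes. A total of 20 higher and 74 lower genes were called in all of 6 fits (the one used here, the Wald test of DESeq2, limma voom, project S232 only, the 8 libraries only, and no project term).

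The steepest change concerned genes of cell division. Of 32 tested genes of the G2 and M phases, 27 fell (1.12% of all tested genes fell) and 0 rose, all 32 had a negative log2 fold change with a median of -7.43, and the libraries of both ages did not overlap for any of them. The summed level of these genes was 2832, 2967 and 2571 CPM in the P10 libraries. It was 94.8, 63.0 and 98.0 CPM in P21 replicates 1 to 3 and 30.5 and 53.1 CPM in replicates 4 and 5. Every P21 library was thus more than an order of magnitude under the lowest P10 library, in both sequencing projects. In a bulk sample a lower number of dividing cells and less of these transcripts per cell cannot be told apart. The number of falling members was 22 to 26 when each library was left out in turn and 23 within project S232.

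Mki67, the gene of the proliferation antigen Ki-67, was at 127, 136 and 111 CPM at P10 and at 0.0539, 0.109, 1.5, 0 and 0.0652 CPM in P21 replicates 1 to 5 (log2 fold change -7.77 ± 1.44, adjusted p = 0.0015). Top2a, the topoisomerase that untangles chromosomes before they separate, was at 175, 210 and 198 CPM at P10 and at 0.539, 1.26, 4.37, 0.0496 and 0.456 CPM at P21 (-6.89 ± 1.18, adjusted p = 5.4e-04). For both genes the lowest P10 library was far above the highest P21 library, which was replicate 3.

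Among the called members were a cyclin and several kinases. Ccnb2, cyclin B2, which drives entry into mitosis, was at 131, 166 and 102 CPM at P10 and at 0, 0.0547, 0.5, 0.149 and 0 CPM at P21 (log2 fold change -9.69 ± 1.74, adjusted p = 0.001). Pbk, a mitotic kinase, was at 138, 132 and 171 CPM at P10 and at 0.108, 0.109, 0.187, 0 and 0 CPM at P21 (-11.00 ± 1.58, adjusted p = 5.1e-05). Of Bub1, a kinase of the spindle checkpoint, 2167 counts were found in the 3 P10 libraries and 3 in the 5 P21 libraries, a pooled ratio per count of 982 with a 95% interval of 336 to 4768 that covers counting error only (adjusted p = 8.1e-04). Its checkpoint partner Bub1b was at 53.3, 42.7 and 65.1 CPM at P10 and at 0.187 CPM or less in each P21 library (-10.09 ± 1.86, adjusted p = 0.0014).

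Both kinesins described next were called as well. Kif23, a subunit of the centralspindlin complex, was at 53.0, 38.2 and 40.9 CPM at P10 and at 0, 0.219, 0, 0 and 0.326 CPM at P21 (log2 fold change -10.00 ± 1.81, adjusted p = 0.0012). Kif20a, a kinesin of the midzone, was at 39.6, 87.7 and 38.0 CPM at P10 and at 0.0991 CPM or less at P21 (-10.15 ± 1.40, adjusted p = 2.4e-05). Each P21 library held 0 to 2 counts of Kif20a.

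Among the genes of chromosome attachment outside that list, Oip5, a subunit of the complex that marks centromeres, had 1171 counts at P10 and 0 in the 5 P21 libraries. With 3 counts over the group as a floor it was at least 531-fold lower (adjusted p = 1.6e-04), and Sgo1, shugoshin, which guards the cohesion of sister chromatids, was at least 588-fold lower (adjusted p = 0.0014). Ska1, of the outer kinetochore, had 992 counts at P10 and 1 at P21 (adjusted p = 0.002). The helicase gene Pif1 was at least 196-fold lower (adjusted p = 0.0043), and its call was not kept in the fit of the 8 libraries alone (adjusted p = 0.051). The other genes named by the size of their fall were Ulbp1, a ligand of the NKG2D receptor, Efcab11, Prr11, Xkr5, an XK-related membrane protein, and Fanca, of the Fanconi anaemia repair complex. Ulbp1 was at 18.2, 3.4 and 14.8 CPM at P10 and had no count at P21 (adjusted p = 0.007). Within project S232 neither Prr11 (adjusted p = 0.086) nor Fanca (0.0501) passed, and Fanca did not pass without the project term (0.11).

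The 5 members of the list that did not pass the test include Aurka and Tacc3. Aurka, the kinase of the spindle poles, was at 99.5, 89.4 and 75.5 CPM at P10 and at 0.162, 11, 0.312, 0.545 and 0 CPM at P21 (log2 fold change -5.16 ± 1.51, adjusted p = 0.078), and it passed without P21 replicate 2 (adjusted p = 0.0068), the library at 11 CPM. Tacc3, its partner at the spindle, was at 142, 152 and 122 CPM at P10 and at 17.0, 4.81, 0.0624, 2.43 and 7.43 CPM at P21 (-4.64 ± 1.30, adjusted p = 0.062), and passed without P21 replicate 1 (adjusted p = 0.038).

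Genes of these phases share promoter elements, of which the CCAAT box and TTTGAA, the core of the cell cycle genes homology region, are known from cyclins and mitotic kinases. The windows of 250 bases before to 50 bases after the transcription start of 4 of the falling genes are shown because they hold such letters; they were taken from the called list members with a window and a match, among those with the largest fold changes. They are RefSeq sequences of build GRCm38.p6, read 5′ to 3′ on the strand of the gene, with CCAAT and its reverse complement ATTGG and TTTGAA in capitals.
Bub1, chr2:127831810-127832109, minus strand: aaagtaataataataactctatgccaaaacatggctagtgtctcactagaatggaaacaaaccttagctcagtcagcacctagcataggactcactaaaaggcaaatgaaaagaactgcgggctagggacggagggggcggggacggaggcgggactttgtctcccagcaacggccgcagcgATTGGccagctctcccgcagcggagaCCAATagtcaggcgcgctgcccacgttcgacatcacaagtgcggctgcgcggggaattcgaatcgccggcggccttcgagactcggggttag
Bub1b, chr2:118597961-118598260, plus strand: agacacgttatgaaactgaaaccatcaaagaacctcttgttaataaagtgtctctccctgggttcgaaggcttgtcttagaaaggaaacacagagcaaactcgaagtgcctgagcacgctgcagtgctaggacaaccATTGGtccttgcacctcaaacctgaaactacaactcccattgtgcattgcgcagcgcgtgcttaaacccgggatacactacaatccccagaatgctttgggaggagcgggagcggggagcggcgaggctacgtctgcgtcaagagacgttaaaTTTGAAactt
Kif23, chr9:61946750-61947049, minus strand: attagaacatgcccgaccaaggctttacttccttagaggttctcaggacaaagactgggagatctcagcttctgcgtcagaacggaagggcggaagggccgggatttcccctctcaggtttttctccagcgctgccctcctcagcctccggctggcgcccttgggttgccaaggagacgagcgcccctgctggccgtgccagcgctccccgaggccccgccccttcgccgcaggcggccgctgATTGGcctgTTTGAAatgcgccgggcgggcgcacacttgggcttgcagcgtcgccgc
Ccnb2, chr9:70421505-70421804, minus strand: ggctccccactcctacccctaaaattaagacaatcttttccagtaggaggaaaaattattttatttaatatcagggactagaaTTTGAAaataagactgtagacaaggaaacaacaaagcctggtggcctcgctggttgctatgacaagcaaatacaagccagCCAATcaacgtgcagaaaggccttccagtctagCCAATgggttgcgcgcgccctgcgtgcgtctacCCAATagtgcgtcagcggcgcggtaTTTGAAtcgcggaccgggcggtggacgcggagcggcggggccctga

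A window was found for 27 of the 32 tested G2 and M phase genes and for 25 of the 31 tested genes of S phase and DNA replication. Searched on both strands, CCAAT was in 82.1% of the 28 G2 and M phase windows and in 37.4% of all 32851 windows of the same length. TTTGAA was in 75% of the G2 and M phase windows and 17.9% of all windows, and both motifs were in 67.9% and 6.95%. The S phase windows had CCAAT in 66.7% of 27 and TTTGAA in 7.41%. Among the windows of all genes that fell the shares were 56.6% and 32.6%, and among those of genes that rose 22.6% and 7.55%. The motifs do not overlap each other in their letters, and a match describes the letters only.

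Genes of DNA synthesis fell in fewer members. Of 31 tested genes of S phase and DNA replication, 8 fell (1.12% of all tested genes fell) and 0 rose. All 31 log2 fold changes were negative with a median of -3.32, and the libraries did not overlap for 27 (5.93% of all tested genes were lower without overlap). The summed level was 1706, 1989 and 1607 CPM at P10 and 286, 387, 318, 422 and 411 CPM in P21 replicates 1 to 5. Their level at P21 was thus a larger share of that at P10 than for the G2 and M phase list, a difference that was not tested. Leaving out single libraries gave 4 to 9 falling members, with 4 without P10 replicate 2, and project S232 alone gave 4.

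Rrm2, a subunit of ribonucleotide reductase, which makes the building blocks of DNA, was at 108, 156 and 189 CPM at P10 and at 0.323, 0.0547, 0.187, 0.347 and 1.24 CPM at P21 (log2 fold change -9.34 ± 1.51, adjusted p = 2.7e-04). Uhrf1, which carries DNA methylation through replication, was at 23.3, 16.2 and 16.7 CPM at P10 and at 0 to 0.312 CPM at P21 (-7.33 ± 1.51, adjusted p = 0.0047). Of the replication licensing gene Cdc6 638 counts were found at P10 and 3 at P21, and of the origin factor Mcm10 640 and 3. P10 replicate 2 held most of the Cdc6 and Mcm10 counts, and without it the adjusted p was 0.088 and 0.091; their calls were also lost when any of 4 P21 libraries was left out (adjusted p up to 0.072). Mcm5, of the replicative helicase, was at 154, 189 and 78.2 CPM at P10 and at 1.5 to 13.7 CPM at P21 (-4.20 ± 1.26, adjusted p = 0.091) and did not pass. Mcm3, of the same helicase, was at 133 to 209 CPM at P10 and 19.9 to 80.9 CPM at P21 (adjusted p = 0.47).

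H2ax, the histone variant that is marked at DNA breaks, was the 1 of 14 tested histone genes that fell, from 125, 127 and 103 CPM at P10 to 6.84, 9.62, 2.93, 22.6 and 17.9 CPM at P21 (log2 fold change -3.81 ± 0.68, adjusted p = 9.7e-04). All 14 log2 fold changes of that list were negative, with a median of -0.85.

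**Figure D2:**
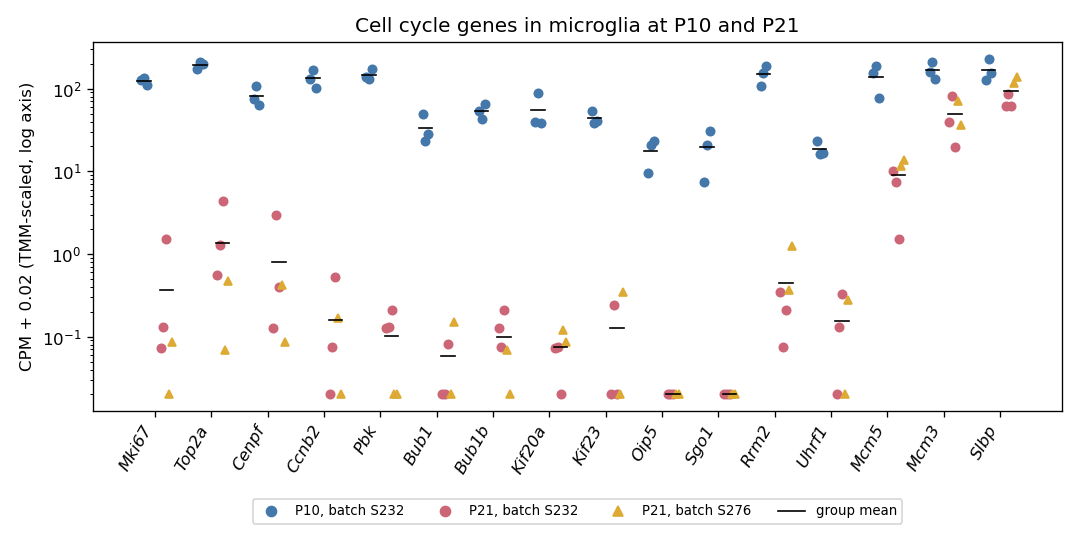
Levels of 16 genes of the cell cycle in each microglia library, as CPM plus 0.02 on a log axis, with P10 in blue, P21 of project S232 in red, P21 of project S276 as yellow triangles and black bars for group means. The 11 genes on the left, from Mki67 to Sgo1, lie between 7.4 and 210 CPM at P10 and under 5 CPM at P21, while Slbp on the far right overlaps between the ages.

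Outside the cell cycle the falls with the smallest p-values were those of Gpx3, Igfbp4 and Mrc1. Gpx3, a secreted glutathione peroxidase, was at 139, 139 and 162 CPM at P10 and at 1.40, 0.273, 0.5, 0.347 and 4.24 CPM at P21 (log2 fold change -7.14 ± 0.54, adjusted p = 2.0e-11). Igfbp4, which binds insulin-like growth factors outside the cell, was at 607, 656 and 575 CPM at P10 and at 93.9, 78.5, 92.2, 62.4 and 45.9 CPM at P21 (-2.89 ± 0.22, adjusted p = 2.0e-11). Both genes kept their call in every alternative tried. Mrc1, the mannose receptor of border macrophages, was at 349, 370 and 324 CPM at P10 and at 25.9, 41.8, 26.4, 45.3 and 14.9 CPM at P21 (-3.52 ± 0.33, adjusted p = 7.0e-09). The fall of Mrc1 was found with edgeR and DESeq2 but not with limma voom and library weights (adjusted p = 0.56).

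Mrc1 belongs to a list of 30 border macrophage markers, of which 5 fell (Mrc1, Fcna, Folr2, Gas6 and Dab2) and 1, Hpgd, rose. The summed level of the whole list was 2386, 2588 and 2359 CPM at P10 and 2036, 1865, 1794, 2465 and 2572 CPM at P21, so that the ages overlapped. In mMΦ the same sum was 34534 ± 127 CPM at P10 and 33479 ± 624 CPM at P21 (SD, n = 3 each). Gas6, a bridging ligand of the TAM receptors for dying cells, was at 610, 737 and 733 CPM at P10 and at 206, 207, 199, 207 and 170 CPM at P21 (log2 fold change -1.80 ± 0.35, adjusted p = 0.003; 0.11 with limma voom). Folr2, a folate receptor, was at 2.97, 5.61 and 5.59 CPM at P10 and at 0 to 1.17 CPM at P21 (-3.53 ± 0.54, adjusted p = 1.2e-04), and Fcna, ficolin A, at 6.13, 15.9 and 3.82 CPM and at 0 to 1.19 CPM (-4.58 ± 0.70, adjusted p = 1.2e-04). In the fit of the 8 libraries alone neither Folr2 (adjusted p = 0.15) nor Fcna (0.19) passed. Hpgd, which breaks down prostaglandins, rose from 424 ± 20.3 to 923 ± 85.9 CPM (log2 fold change 1.12 ± 0.19, adjusted p = 4.8e-04). Whether a few border macrophages in the sorted cells took part in these falls was not tested.

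Of 25 tested genes of amoeboid and lipid-associated microglia, 6 fell (Apoe, Igf1, Lyz2, Gpx3, Ctsl and Ctsb) and 0 rose, with a median log2 fold change of -0.83. Their summed level was 23316, 24773 and 23037 CPM at P10 and 14505, 14448, 14086, 10080 and 9450 CPM at P21, without overlap. Abundant members weigh most in this sum, among them Apoe with means of 5568 CPM at P10 and 1279 CPM at P21. Of the 25 genes 9 were lower and 2 higher without overlap (5.93% and 5.13% of all tested genes). The log2 fold changes were negative for 17 and positive for 8. Leaving out single libraries gave 5 or 6 falling members, and limma voom gave 4 with 1 rising.

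Apoe, the lipid carrier apolipoprotein E, was at 6336, 5330 and 5037 CPM at P10, at 1886, 1953 and 2176 CPM in P21 replicates 1 to 3 and at 208 and 170 CPM in replicates 4 and 5 (log2 fold change -2.04 ± 0.38, adjusted p = 0.0016). Lyz2, lysozyme, was at 540.45, 553 and 483 CPM at P10, at 277, 312 and 321 CPM in P21 replicates 1 to 3 and at 66.2 and 71.5 CPM in replicates 4 and 5 (-1.16 ± 0.23, adjusted p = 0.0034). For both genes each P21 library lay under each P10 library, and the S276 libraries lay lowest. With limma voom neither passed (adjusted p = 0.93 for Apoe and 0.98 for Lyz2), nor did either in microglia alone (0.052 and 0.056). The project term is shared by all populations, so that a project difference particular to microglia stays in these fold changes. Over all alternatives and omissions they ran from -2.28 to -1.48 for Apoe and from -1.33 to -0.79 for Lyz2. Igf1, a growth factor for oligodendrocytes and neurons, was at 19.7, 29.4 and 26.8 CPM at P10 and at 1.51, 5.41, 5.06, 2.181 and 15.5 CPM at P21 (-2.39 ± 0.51, adjusted p = 0.007; 0.13 in the fit of the 8 libraries alone).

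Other well-known members of this programme did not pass. Lpl, lipoprotein lipase, was at 360, 325 and 382 CPM at P10 and at 110, 90.3, 208, 92.5 and 62.1 CPM at P21 (log2 fold change -1.42 ± 0.70, adjusted p = 0.46), without overlap, and passed in the fit of the 8 libraries alone (adjusted p = 0.042). Spp1, osteopontin, was at 47.7, 77.1 and 60.3 CPM at P10 and ranged from 7.48 to 103 CPM at P21 (0.25 ± 1.31, adjusted p of 1), and 6 of 9 alternative settings turned its sign. Clec7a, the receptor dectin-1, was at 18.5, 13.7 and 12.8 CPM at P10 and at 74.2, 29.7, 110.5, 39.8 and 49.2 CPM at P21 (1.71 ± 0.84, adjusted p = 0.45). It was thus higher without overlap, and it also passed in the fit of the 8 libraries alone (adjusted p = 0.038). Itgax and Cst7 overlapped between the ages, with adjusted p near 1 for each.

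Genes of sterol supply fell in part. Of 23 tested genes of cholesterol synthesis and uptake 3 fell and 0 rose, 20 log2 fold changes were negative, and the median was -0.75. Stard4, a carrier of cholesterol between membranes, was at 8.66, 8.21 and 13.6 CPM at P10 and at 0, 0, 0, 0.198 and 0.261 CPM at P21 (-8.43 ± 1.41, adjusted p = 3.8e-04). Srebf2, the transcription factor that drives this pathway, was at 71.1, 81.3 and 61.1 CPM at P10 and at 27.5, 7.33, 16.0, 18.3 and 15.8 CPM at P21 (-2.17 ± 0.55, adjusted p = 0.033). The call of Srebf2 was lost when any of 7 of the 8 libraries was left out (adjusted p 0.066 to 0.12; not for P21 replicate 1). Of 21 genes of cholesterol efflux and lipid handling 2 fell, Apoe and the scavenger receptor gene Cd36. Cd36 was at 11.5, 7.18 and 9.75 CPM at P10, at 0.109 to 1.29 CPM in the S232 libraries of P21 and at 6.59 and 14.4 CPM in the S276 libraries (-2.80 ± 0.67, adjusted p = 0.02), and without the project term it did not pass (adjusted p = 0.64). The call of Cd36 was also lost without P10 replicate 1 or 3 or P21 replicate 1, 2 or 3 (adjusted p 0.051 to 0.091), in the 8 libraries alone (0.093), in microglia alone (0.12), without the low-count filter (0.059) and with limma voom (0.56).

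Lysosomal genes moved both ways, with 4 lower and 2 higher of 37 tested and a median log2 fold change of -0.06. Ctsl, cathepsin L, was at 5284, 6123 and 5438 CPM at P10 and at 3322, 2810, 2961, 2359 and 2379 CPM at P21 (log2 fold change -0.83 ± 0.15, adjusted p = 0.0015). Gusb, a glucuronidase, was at 1072, 1160 and 850 CPM at P10 and at 563, 525, 549, 530 and 534 CPM at P21 (-0.90 ± 0.17, adjusted p = 0.0016). Ctsd, cathepsin D, ran the other way, from 9263, 9927 and 9025 CPM at P10 to 15898, 15487, 14449, 14278 and 12743 CPM at P21 (0.68 ± 0.15, adjusted p = 0.012). The ages did not overlap for any of these 3 genes. The call of Ctsd was lost without P10 replicate 1 (adjusted p = 0.066) or replicate 3 (0.076), that of Lgmn, legumain, without P10 replicate 2 (0.092), and neither passed with limma voom (0.48 and 0.65).

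The 40 genes that rose were led by Mctp1, an endoplasmic reticulum protein with calcium-binding domains. It was at 2, 1.49 and 4.97 CPM at P10 and at 45.5, 36.5, 36.5, 37.1 and 40.9 CPM at P21 (log2 fold change 3.57 ± 0.65, adjusted p = 0.0012). Pmp22, a membrane protein best known from peripheral myelin, was at 214, 246 and 191 CPM at P10 and at 724, 738, 773, 702 and 698 CPM at P21 (1.73 ± 0.17, adjusted p = 2.4e-08). For both genes the P21 libraries of each project lay above all P10 libraries, which were of S232 only. Absence of overlap was a condition for naming genes by the size of their rise, so that it adds no support here.

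Among secreted factors 3 of 29 tested chemokines and cytokines rose and 0 fell, namely Ccl9, Ccl6 and Cxcl16. Ccl9 was at 193, 168 and 218 CPM at P10 and at 549, 575, 576, 440 and 567 CPM at P21 (log2 fold change 1.62 ± 0.19, adjusted p = 1.0e-06), and Ccl6 at 256, 258 and 293 CPM and at 621, 573, 497, 415 and 421 CPM (1.15 ± 0.27, adjusted p = 0.016). The membrane-bound chemokine gene Cxcl16 was at 22.9 to 44.6 CPM at P10 and 66.6 to 117 CPM at P21 (1.53 ± 0.35, adjusted p = 0.015). Of these only Ccl9 kept its call in every alternative tried, while Ccl6 was lost without P10 replicate 1 (adjusted p = 0.09), 2 (0.091) or 3 (0.052), and Cxcl16 without P10 replicate 2 (0.14) or 3 (0.078).

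Ywhah, Lpxn and H2-DMa were also called higher. Ywhah, the 14-3-3 protein eta, was at 205, 252 and 216 CPM at P10 and at 559, 532, 630.5, 556 and 565 CPM at P21 (log2 fold change 1.36 ± 0.18, adjusted p = 1.2e-05). Lpxn, an adaptor of adhesion sites, was at 69.0, 88.6 and 92.4 CPM at P10 and at 271, 239, 230, 337 and 362 CPM at P21 (1.76 ± 0.34, adjusted p = 0.0024). H2-DMa, which loads peptides onto class II molecules, was at 171, 190 and 178 CPM at P10 and at 418, 492, 511, 371 and 356 CPM at P21 (1.39 ± 0.28, adjusted p = 0.004). H2-Aa, a class II chain itself, stayed between 0.478 and 8.78 CPM in all 8 libraries (adjusted p = 0.99).

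Cst3, the protease inhibitor cystatin C, was at 28846, 26852 and 26844 CPM at P10, at 70843, 70085 and 72061 CPM in the S232 libraries of P21 and at 33061 and 34368 CPM in the S276 libraries (log2 fold change 1.28 ± 0.22, adjusted p = 4.4e-04). The S232 libraries of P21 thus lay far above P10 and the S276 libraries little above it, and Cst3 did not pass without the project term (adjusted p = 0.086) or with limma voom (0.051). Timp2, an inhibitor of metalloproteases, was at 615, 673 and 629 CPM at P10 and at 950 to 1039 CPM at P21 (0.57 ± 0.12, adjusted p = 0.0051; 0.27 without the low-count filter).

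The remaining genes named by the size of their rise were Sult1a1, a sulfotransferase, Nampt, of NAD salvage, Cask, a scaffold, Tmcc3, Srgn, the proteoglycan serglycin, Pnpla2, a triglyceride lipase, and Samsn1, an adaptor. Sult1a1 was at 27.5, 11.6 and 19.1 CPM at P10 and at 139, 113, 159, 73.4 and 88.0 CPM at P21 (log2 fold change 2.61 ± 0.54, adjusted p = 0.005; 0.072 without P10 replicate 2). Samsn1 was at 119 to 132 CPM at P10 and 269 to 359 CPM at P21 (1.32 ± 0.27, adjusted p = 0.0043; 0.06 without the low-count filter). The calls of Nampt (P10 replicate 1 or 2, adjusted p 0.081 and 0.086), Cask (any P10 library, 0.051 to 0.081), Pnpla2 (any P10 library or P21 replicate 3, 0.071 to 0.14), Srgn (the same libraries, 0.057 to 0.2) and Tmcc3 (any library but P21 replicate 3, 0.058 to 0.28) were lost when these were left out. Of 26 transcription factors of microglia and macrophages 2 rose, among them Mef2a, and Mef2a (1.13 ± 0.29, adjusted p = 0.039) lost its call without any library but P21 replicate 3 (0.052 to 0.18).

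**Figure D3:**
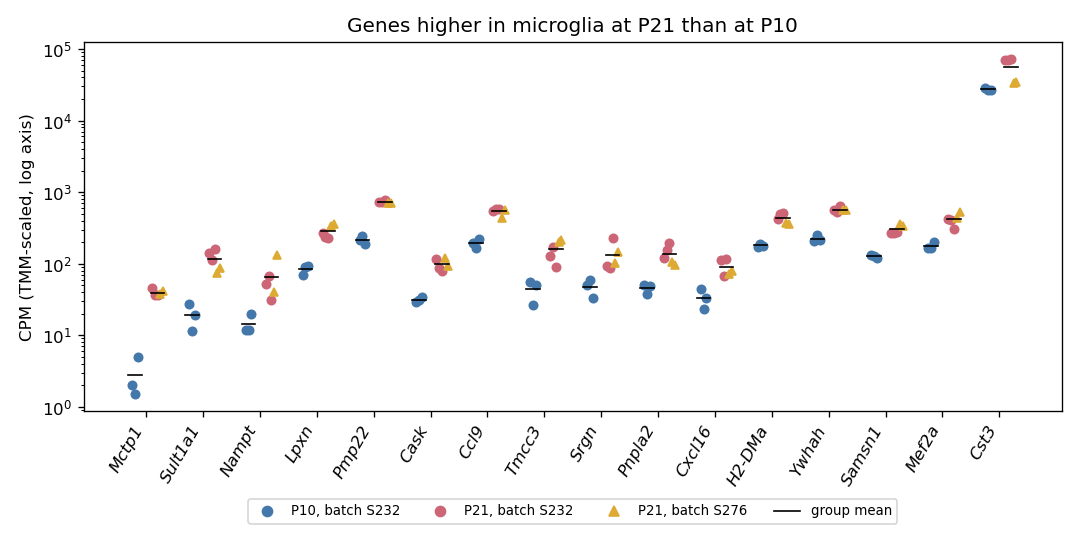
Levels of 16 genes that were higher at P21, in CPM on a log axis, for each microglia library, with P10 in blue, P21 of project S232 in red, P21 of project S276 as yellow triangles and black bars for group means. All P21 points of each gene lie above its P10 points, with Cst3 split by project at P21. For the genes named by the size of their rise this was a condition of the choice.

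The genes by which adult microglia are recognised were already high at P10. Of 24 tested microglia markers 0 were called in either direction, and their summed level was 98203, 99477 and 94320 CPM at P10 and 117540, 107750, 108440, 110740 and 107540 CPM at P21. With limma voom 5 of the 24 were higher and 3 lower, and with the 8 libraries alone 3 and 2. P2ry12, the purinergic receptor of process motility, was at 10864, 11040 and 11858 CPM at P10 and 13527, 12233, 12299, 15091 and 16271 CPM at P21 (log2 fold change 0.22 ± 0.26, adjusted p = 0.94). Tmem119 was at 3302, 3134 and 3182 CPM at P10 and at 4978, 4962, 5230, 7071 and 6028 CPM at P21 (0.61 ± 0.29, adjusted p = 0.43; 0.003 with the 8 libraries alone). Both markers were higher in each P21 library than in each P10 library although neither passed the test used here. Of the 24 markers 8 were higher and 2 lower without overlap (5.13% and 5.93% of all tested genes). Their log2 fold changes were positive for 15 and negative for 9.

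Cx3cr1, whose locus carries the reporter, had a log2 fold change of 0.41 ± 0.24 (adjusted p = 0.59). Sall1, a zinc finger factor that keeps microglia apart from other macrophages, was at 347, 239 and 311 CPM at P10 and at 237 to 383 CPM at P21 (0.02 ± 0.77, adjusted p of 1). Siglech, a lectin of microglia, was at 3085, 3237 and 3117 CPM at P10, at 3537, 3465 and 3645 CPM in the S232 libraries of P21 and at 1402 and 1426 CPM in the S276 libraries (-0.02 ± 0.25, adjusted p of 1). Mertk, a receptor for dying cells, was at 214, 189 and 198 CPM at P10 and at 352, 550, 408, 738 and 641 CPM at P21 (1.16 ± 0.44, adjusted p = 0.25), without overlap. Trem2, the lipid receptor of microglia, overlapped between the ages (0.43 ± 0.21, adjusted p = 0.44).

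Of 18 tested complement genes 0 were called, and the summed level was 31580 to 35134 CPM at P10, 41210 to 43441 CPM in the S232 libraries of P21 and 27347 and 26270 CPM in the S276 libraries. C1qb (log2 fold change 0.42 ± 0.11, adjusted p = 0.058) and C1qa (0.37 ± 0.11, adjusted p = 0.078) lay close to the threshold and passed within project S232 (adjusted p = 0.041 and 0.022). None was called of the purinergic (23 tested), TGF-beta and BMP (29), pattern recognition (28), interferon response (30) and oxidative phosphorylation (34) genes. Cd14, a coreceptor for lipopolysaccharide, was at 469 to 488 CPM at P10 and at 771 to 933 CPM at P21 (0.84 ± 0.24, adjusted p = 0.068; 0.029 within project S232). All 36 tested cytosolic ribosomal protein genes had a negative log2 fold change with a median of -0.63, 20 without overlap (5.93% of all tested genes). Of the 36 genes 1, Rps19, passed (adjusted p = 0.046, and 0.069 to 0.13 without any library but P21 replicate 2), where 1.12% of all tested genes fell. Their summed level was 5028, 4398 and 4083 CPM at P10 and 2678, 3277, 3302, 1440 and 1761 CPM at P21, lowest in the S276 libraries. The remaining lists had 1 or 2 called members, namely Aldoa (of 23 glycolysis genes) and H2-T23 (of 18 class I genes) higher, and Nrp1 and Igf1 (of 22 growth factor genes) and Cd36 and Gas6 (of 27 phagocytosis genes) lower. Of all tested genes 0.234% rose and 1.12% fell, and 1 or 2 calls describe these genes and not their list. Single libraries also decided Aldoa (adjusted p = 0.069 without P10 replicate 3), H2-T23 (0.14 without P10 replicate 2, 0.18 without 3, 0.056 and 0.089 without P21 replicates 3 and 1) and Nrp1 (0.091 without P10 replicate 2, 0.073 without 3, 0.071 without P21 replicate 3).

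**Figure D4:**
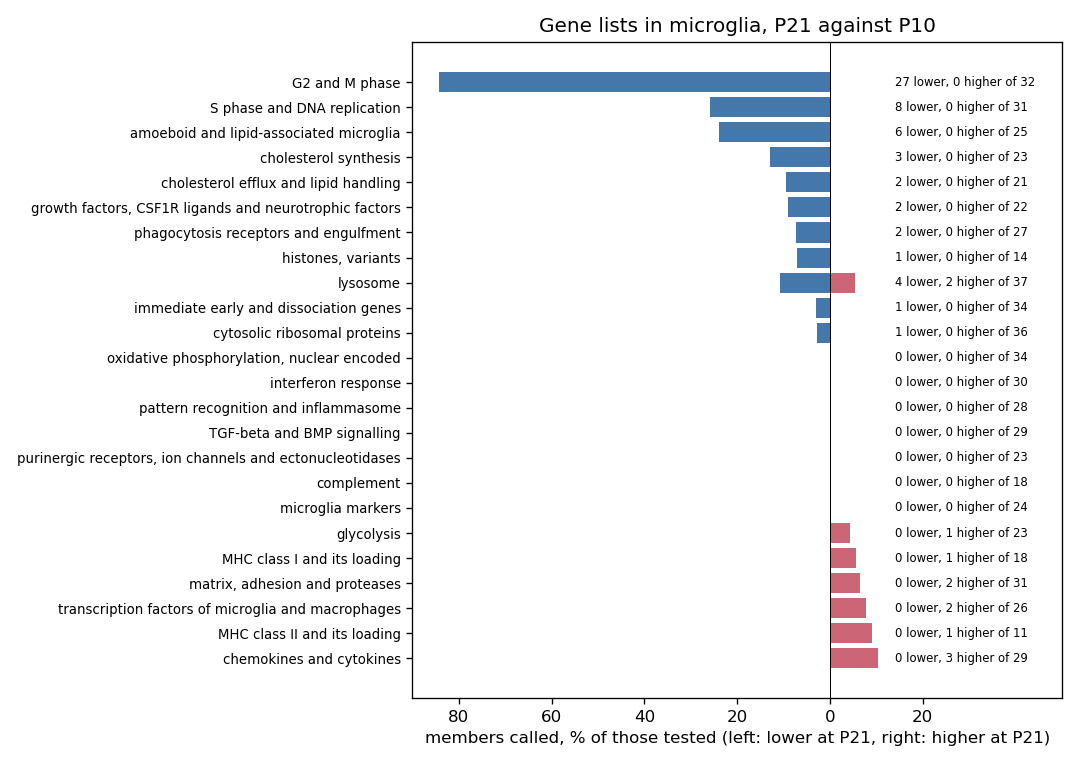
Share of the tested members of each gene list that were lower (blue, to the left) or higher (red, to the right) at P21, in percent, with the counts printed beside the bars. The G2 and M phase list stands out with 27 of 32 members lower, and no other list has more than 8 called members.

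Genes induced by stimulation and by tissue dissociation split the P21 libraries by project. The summed level of 34 immediate early and dissociation genes was 12480, 9057 and 11959 CPM at P10, 4061, 4333 and 7044 CPM in P21 replicates 1 to 3 and 22443 and 17810 CPM in replicates 4 and 5. Egr1, an immediate early transcription factor, was at 1284, 952 and 1386 CPM at P10, at 255, 283 and 530 CPM in the S232 libraries of P21 and at 4291 and 3215 CPM in the S276 libraries (log2 fold change -0.33 ± 0.65, adjusted p = 0.99), and it fell in the fit of the 8 libraries alone (-1.80, adjusted p = 0.014). Within project S232 9 of the 34 genes fell, against 1, Hspa1a, in the fit used here. Hspa1a, an inducible heat shock protein, was at 60, 35.5 and 53.5 CPM at P10 and at 5.87, 7.27, 6.43, 18.8 and 16.4 CPM at P21 (-2.82 ± 0.69, adjusted p = 0.022), and its call was lost without P10 replicate 1 or 3 or any S232 library of P21 (adjusted p 0.061 to 0.083). The call of Hspa1a was also lost without the project term (adjusted p = 0.14), with limma voom (0.2) and without the low-count filter (0.071). Tgfbr1, a receptor for TGF-beta, was at 593, 537 and 687 CPM at P10, at 1355, 1370 and 754 CPM in the S232 libraries of P21 and at 3442 and 4242 CPM in the S276 libraries (1.16 ± 0.44, adjusted p = 0.25). The part of handling or project in these levels was not tested.

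Markers of other cells gave few calls. Of the neutrophil, monocyte, lymphocyte, erythroid, neuron, oligodendrocyte, astrocyte, mural, fibroblast and choroid plexus lists 0 members were called. The summed level of 16 astrocyte markers was 28.6 to 66.3 CPM at P10 and 185 to 293 CPM at P21, mostly from Slc1a3, a glutamate transporter, at 28.4 to 50.9 CPM and 180 to 269 CPM (log2 fold change 2.29 ± 0.99, adjusted p = 0.37). Of 19 tested endothelial genes 1 fell, Egfl7, from 17.6, 24.2 and 27.0 CPM to 0.149 to 5.25 CPM (-3.14 ± 0.59, adjusted p = 0.0016; 0.12 in the fit of the 8 libraries alone). The sum of 17 tested neuron markers was 20.3 to 29.7 CPM at P10 and 8.13 to 17.3 CPM at P21.

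The change between these ages was then compared with that of the border macrophages, by the difference of the log2 fold changes, in mMΦ (3 libraries per age) and pvMΦ (3 at P10, 4 at P21). These steps share no library with the microglia step. The change differed from that of mMΦ in 31 genes (0.182%), more negative in microglia for 25 of them, and from that of pvMΦ in 10 genes (0.0586%), more negative in microglia for all 10. At an unadjusted p under 0.05 the numbers were 1257 and 1282. Omission of single libraries moved the first count to between 10 and 32 and the second to between 5 and 28. It was 20 and 17 without microglia P10 replicates 1 and 2, 13, 10 and 11 without mMΦ P10 replicates 1, 2 and 3 and 20 without mMΦ P21 replicate 2. The count for pvMΦ was 6 without microglia P10 replicate 2, 6, 5 and 5 without pvMΦ P10 replicates 1, 2 and 3, 28 without pvMΦ P21 replicate 4, and 52 within project S232.

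Gpx3 showed the smallest p-value against both populations. It fell in microglia as given above, while it was at 328 ± 28.9 CPM at P10 and 787 ± 116 CPM at P21 in mMΦ and at 323 ± 37.3 and 628 ± 94.1 CPM in pvMΦ. The differences of the log2 fold changes were -8.40 (adjusted p = 8.2e-09) and -7.98 (1.4e-08), and both were kept in every alternative tried. Mrc1 was at 3464 ± 68.4 and 3635 ± 374 CPM in mMΦ and at 2537 ± 453 and 2222 ± 539 CPM in pvMΦ, with differences of -3.58 (adjusted p = 9.8e-05) and -3.31 (1.6e-04). Lyz2 was at 5893 ± 444 and 11222 ± 476 CPM in mMΦ and 3180 ± 125 and 8119 ± 2940 CPM in pvMΦ, and its change in microglia lay lower by 2.09 (difference -2.09, adjusted p = 0.0022) and 2.67 (difference -2.67, 3.0e-05). Igfbp4 differed by -2.14 (adjusted p = 4.8e-04) and -2.08 (2.9e-04). With limma voom the differences of Mrc1, Lyz2 and Igfbp4 did not pass (adjusted p 0.31 to 0.97).

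Apoe was at 35101 ± 2901 CPM at P10 and 54940 ± 21292 CPM at P21 in pvMΦ, and its change differed by -2.83 (adjusted p = 0.033). That call was lost when any of 8 of 15 libraries was left out (adjusted p 0.0505 to 0.22). Cd74, the invariant chain of class II molecules, was at 187, 221 and 182 CPM at P10 and at 131, 131, 156, 56.6 and 49.8 CPM at P21 in microglia (adjusted p = 0.56), and at 292 ± 44.9 and 1949 ± 1589 CPM in pvMΦ. The difference of -3.63 (adjusted p = 0.031) was lost when any of 8 of 15 libraries was left out (up to 0.24).

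Of the 31 genes that differed from mMΦ, 8 belong to the cell cycle lists, and 1 of the 10 that differed from pvMΦ does. The G2 and M phase sum of mMΦ was 683 ± 118 CPM at P10 and 480 ± 126 CPM at P21, and that of pvMΦ 1891 ± 102 and 471 ± 199 CPM. Cenpf, a kinetochore protein, was at 75.8, 108 and 63.9 CPM at P10 and at 0.108, 2.95, 0.375, 0.396 and 0.0652 CPM at P21 in microglia, at 71.8 ± 15.5 and 47.3 ± 20.3 CPM in mMΦ and at 74.4 ± 13.9 and 50.8 ± 17.3 CPM in pvMΦ. Its change differed by -5.85 (adjusted p = 0.0022) and -6.40 (4.1e-04), and did not pass in fits of the compared groups alone (0.052 and 0.1). Cdc25c, the phosphatase that activates the mitotic kinase Cdk1, had 658 counts at P10 and 2 at P21 in microglia, while mMΦ were at 0.0454 ± 0.0475 and 12.3 ± 16.9 CPM, which ranged from 0 to 31.6 CPM at P21. The difference (adjusted p = 0.0022) was kept when any of the 14 libraries was left out and did not pass in the fit of the compared groups alone (0.066). Kif20a (adjusted p = 0.0062), Oip5 (0.0075), Pbk (0.011), Stard4 (0.018), Brca1 (0.025), Bub1 (0.036) and Bub1b (0.043) also differed from mMΦ, and each of these calls was lost when any of 2 or all 3 of the mMΦ P10 libraries was left out singly. In total the call was lost in 11 of 14 omissions for Bub1 (adjusted p up to 0.62), 12 for Bub1b (0.27) and 6 for Brca1 (0.40). Of 8 other settings, 4, 5 and 3 ended these 3 calls. The Stard4 call was also lost without mMΦ P21 replicate 2 (0.052). Pmp22 (difference 1.47, adjusted p = 0.002) and Ywhah (1.44, 0.0046) rose in microglia and differed from mMΦ, where Pmp22 was at 632 ± 76.2 and 753 ± 91.9 CPM, in all omissions of a library. Mctp1 differed by 3.94 (adjusted p = 0.036), which was lost when any of 10 of 14 libraries was left out (up to 0.19), and was at 79.6 ± 26.4 and 61.7 ± 27.0 CPM in mMΦ.

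Over all 5 ages of microglia the step between P10 and P21 can be placed by group means, which share the P10 and P21 libraries with the test above and are given without a further test. The G2 and M phase sum was 3642 ± 71.5 CPM at E14.5, 2116 ± 474 at P3, 2790 ± 201 at P10, 67.9 ± 28.6 at P21 and 65.9 ± 29.8 at P56 (SD, n = 3, 3, 3, 5 and 5). The S phase sum was 3257 ± 185, 1926 ± 515, 1767 ± 198, 365 ± 59.9 and 410 ± 57.0 CPM. For both lists the P21 level was close to that of P56. Mrc1 was at 100 ± 29.1, 309 ± 7.75, 348 ± 23, 30.9 ± 12.5 and 8.11 ± 4.27 CPM and Gpx3 at 417 ± 65.5, 393 ± 94.9, 147 ± 13.5, 1.35 ± 1.67 and 1.32 ± 1.07 CPM, so that Mrc1 was highest at P10 and Gpx3 at E14.5 and P3. Pmp22 was at 13.8 ± 2.23, 79.5 ± 17.8, 217 ± 27.6, 727 ± 30.6 and 694 ± 72.3 CPM.

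**Figure D5:**
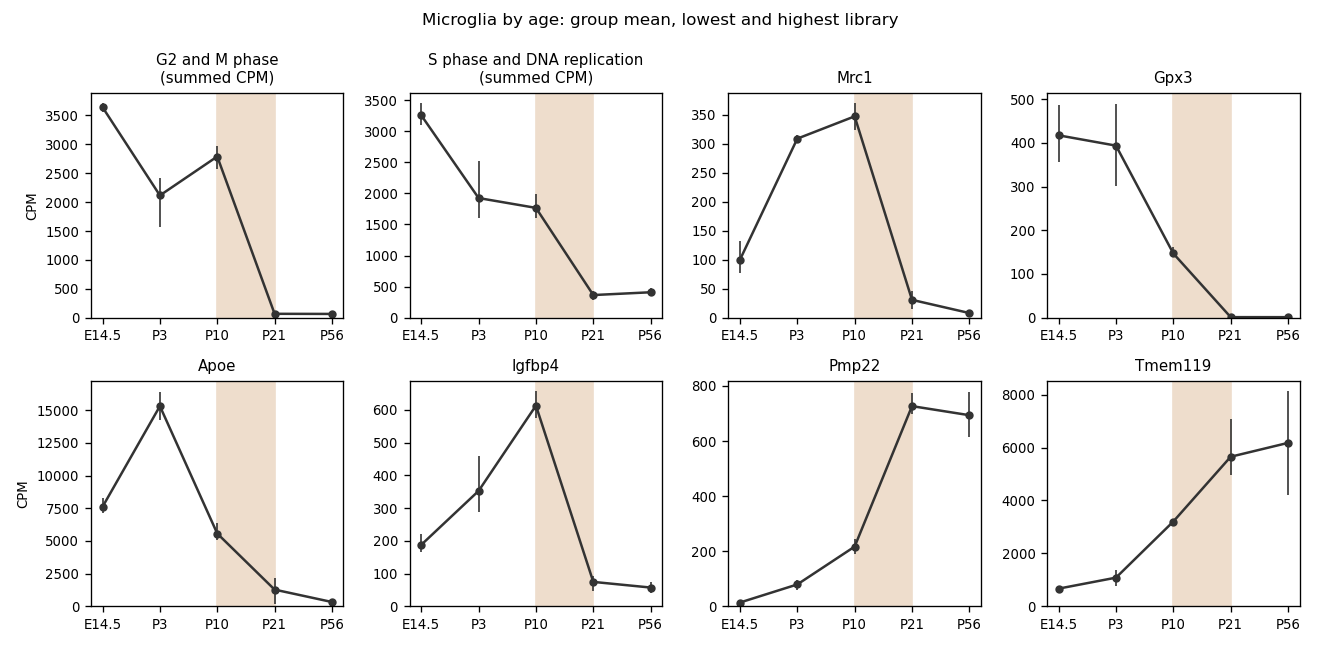
Microglia at 5 ages (horizontal axis, equally spaced), as group mean CPM with bars from the lowest to the highest library, for the summed G2 and M phase and S phase lists and 6 genes; the shaded band marks the step between P10 and P21. The G2 and M phase sum is 2790 CPM at P10 and 67.9 CPM at P21, and Pmp22 217 and 727 CPM.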

How the data were processed

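RNA of microglia, mMΦ and pvMΦ was measured in 45 libraries, made with a full-length, unstranded low-input kit and a transposase kit per the labels' protocols. The authors deposited 1 table of whole-number gene counts; per the submitters' processing notes the tools were bcl2fastq 2.18, STAR 2.7.8a and featureCounts 2.0.2. Build, annotation and strand handling were "not given in the sources used here", so that overlapping genes on opposite strands are uncertain. Of 53546 symbols 35253 had a count, and 17064 passed filterByExpr of edgeR 4.0.16 (minimum count 10, minimum total 15) in R 4.3.3. After TMM scaling the quasi-likelihood F test (robust) was run on the 45 libraries together (each population at each age had its own coefficient, and project S276 a further one), with Benjamini-Hochberg adjustment within each contrast and a threshold of 0.05. SE is the log2 fold change divided by the root of F.

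Named by rule were the 15 called genes with the largest change in each direction with 5 CPM or more on average in either age and no overlap (unnamed gene models, mitochondrial, ribosomal protein, receptor segment and sex-linked genes left out), up to 4 called and 2 uncalled members of a list, a set of well-known genes, and the 8 largest differences from each border population; further genes named from the lists of differences (such as Hpgd and Folr2) were chosen after their values were seen, and some genes that the rule names are not reported here. Members and gene lists were chosen with earlier results of these data known. Where a group had 0 counts, the fold is a bound from 3 counts over the group. The series' design gives individual mice as replicates. Same-numbered replicates of both ages did not deviate together (r = -0.00458, -0.00851 and -0.0111), and r was -0.00185 to 0.00987 between replicates of different number. Such small values over all genes cannot decide whether libraries shared a preparation, and the libraries were treated as unpaired. Alternatives were size factors and the Wald test of DESeq2 1.42.0, limma 3.58.1 voom with library weights, no low-count filter, no project term, project S232 only, a replicate block, fewer groups in the fit, and each library left out. Promoter windows are from RefSeq (GRCm38.p6), matched by symbol.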

Additional observations from a re-analysis of the deposited data

Results flagged for a closer look

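In the P21 group of 5 libraries, 15 of 91 genes had 1 library farther from the others than the 95% limit of Dixon's gap test allows. For independent genes with normally distributed values about 4.55 would be expected. These genes change together and many are near 0 counts, so that an excess over chance is not shown. P21 replicate 5 was the high one for Gpx3 (4.24 CPM), Igf1 (15.5 CPM) and Rrm2 (1.24 CPM) and the low one for Gas6 (169.5 CPM). P21 replicate 2 stood out for Aurka (11 CPM), Cenpf (2.95 CPM), Cdc25c (0.109 CPM) and Ska1 (0.0547 CPM). P21 replicate 3 stood out for Mki67 (1.5 CPM), Top2a (4.37 CPM), Prr11 (0.0624 CPM) and Brca1 (0.0624 CPM). P21 replicate 1 was high for Fcna (1.19 CPM) and Xkr5 (0.0539 CPM), and P21 replicate 4 low for Ccl9 (440 CPM). Ska1, Prr11, Xkr5 and Brca1 rest on 1 count and Cdc25c on 2. The other P21 libraries had no count of these genes, so that any count at all exceeds the limit.

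Other genes drew attention because their change from P10 to P21 differed between microglia and a border population by the interaction test. Against mMΦ the log2 differences were -15.99 for Cdc25c, -12.35 for Bub1, -11.99 for Oip5, -11.50 for Bub1b, -10.94 for Pbk, -10.85 for Brca1, -10.33 for Kif20a, -9.60 for Stard4, -9.58 for Rrm2, -8.40 for Gpx3, -5.85 for Cenpf, -4.45 for Fcna, -3.70 for Folr2, -3.58 for Mrc1, -2.14 for Igfbp4 and -2.09 for Lyz2. They were 3.94 for Mctp1, 1.47 for Pmp22 and 1.44 for Ywhah. Against pvMΦ they were -7.98 for Gpx3, -6.40 for Cenpf, -3.72 for Folr2, -3.63 for Cd74, -3.31 for Mrc1, -2.83 for Apoe, -2.67 for Lyz2 and -2.08 for Igfbp4. Fitted differences of genes with under 4 counts in an age depend on the prior count of the model and are no bound. The difference of Rrm2 from mMΦ (adjusted p = 0.035) was lost when any of 10 of 14 libraries was left out (0.0501 to 0.23). That of Fcna (0.036) was lost for 12 of 14 libraries (0.052 to 0.21) and with limma voom (0.63).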

How the results depend on the processing

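The numbers of genes higher, lower, different from mMΦ and different from pvMΦ were 338, 501, 492 and 484 with the Wald test of DESeq2 and 297, 608, 144 and 48 with limma voom. Without the low-count filter 20 were higher and 19 differed from mMΦ. In the compared groups alone 178 were higher and 83 differed from mMΦ, and within project S232 52 differed from pvMΦ. Leaving out each library gave 18 to 39 higher, 140 to 177 lower, 10 to 32 different from mMΦ and 5 to 28 different from pvMΦ. The cause of these shifts was not tested.

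With the replicate number as a block in place of the project term, since replicates 4 and 5 are the S276 libraries, 40 genes were higher, 173 lower, 27 different from mMΦ and 9 from pvMΦ, and 36 and 160 of the calls were kept. The block ended the calls of Tmcc3, Mef2a, Mcm10 and Rps19 (adjusted p 0.063 to 0.072) and of the differences of Bub1b, Fcna and Brca1 from mMΦ and of Apoe from pvMΦ (0.0601 to 0.0658), while Tacc3 (0.043) and C1qb (0.036) passed. Whether the numbers pair the libraries is not known.

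Some genes not called here turned their sign. Spp1 was at -0.71 with limma voom, -0.54 without the project term, -0.87 within S232, -0.54 with the block, -0.91 in the 8 libraries alone, -0.36 in microglia alone and -0.85 to 0.71 with 1 library left out (lowest without P21 replicate 5). Siglech was at 0.0573 with limma voom, 0.17 within S232, 0.001 with the block, 0.13 in the 8 libraries alone and -0.0904 to 0.0479 with 1 library left out. Sall1 was at -0.0077 without the filter, -0.0165 with the block and -0.13 to 0.13 with 1 library left out. Egr1 was at 0.57 with limma voom, 0.51 without the project term and -0.73 to 0.15 with 1 library left out (above 0 without P21 replicate 1 or 2), against a called -1.80 in the 8 libraries alone, and H2-Aa was at -0.58 to 1.05 (below 0 without P21 replicate 1).

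Of the 231 calls 39 higher and all 191 lower ones were kept with DESeq2 size factors. Within project S232 30 of the 40 higher and 117 of the 191 lower calls were kept. The 8 libraries alone kept 34 and 120, with 19 called genes not tested there. Without the low-count filter 18 and 132 were kept. Leaving out single microglia libraries kept 17 to 36 higher and 125 to 154 lower calls. No call changed direction in any alternative except 1 gene without the project term. The 0.05 threshold and 3 P10 libraries limit what can be called, so that a missing call does not show equal levels.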
